A study of Mus musculus with 8 samples.

Results

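Chemokines, cytokines and acute-phase genes were followed here through 10 genes chosen by symbol: the chemokines Ccl2, Ccl7, Cxcl1, Cxcl5 and Cxcl12, the cytokines Csf1 and Il6, and the innate effectors Saa3, Nos2 and Ptx3. Each had 1 row, under its own symbol and merged with no other gene, in each of 3 deposited gene tables of 23115, 28603 and 28748 loci. The 8 RNA-seq libraries came from differentiating myoblasts, the muscle precursors that satellite cells give rise to, of B6/129 mice. All female WT and KO mice carried Pax7-CreER, a tamoxifen-dependent Cre recombinase driven from the satellite cell gene Pax7, with the Cre-dependent reporter Rosa26-Floxed-TdTomato, and female KO mice also carried UTX-Floxed. The growth protocol describes satellite cells of UTXmKO/TdT or UTXWT/TdT mice. The labels give no genotype for male WT, male KO, Ctrl-KI or KI, and no age for any group. All cells were grown with 2.5 µM 4-OH-Tamoxifen, 2.5 ng/mL FGF and 20% serum, sorted for the reporter and differentiated for 24 h. Female WT, female KO, male WT and male KO had 1 library each. Ctrl-KI and KI, both female, had 2 libraries each, which the deposited table gives as 1 pooled column per group, and the labels do not say whether they came from separate animals.

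Expression is given as FPKM, fragments per kilobase of transcript, scaled to the mapped fragments of a library. No group has replicate values, so a comparison within a table has no test and no replicate check, and the only error is the confidence interval deposited with each value. Its level is not stated. The median width of that interval ran from 39.7% of the FPKM in Ctrl-KI to 165% in both male columns. Read depth is unknown. Kdm6a, the targeted gene, was 20.8 FPKM in female WT against 16.9 in female KO, with overlapping intervals (9.71 to 31.9 and 7.95 to 25.8). It was 7.87 against 2.08 FPKM in males (intervals 1.57 to 14.2 and 0.0854 to 4.07) and 12.8 against 13.2 in the KI table. A whole-gene value of this kind also counts exons outside a floxed part. Among genes above 0 and under 0.3 FPKM in both columns of a table, the commonest value of mutant over control FPKM was 0.660 in females (124 of 1901 genes), 0.966 in males (154 of 3377) and 0.841 in KI (127 of 4028). Defining markers of myoblasts were read in every column, beside markers of other cell types given below. Myod1, the myogenic master regulator, was 104 to 1005 FPKM and Myog, which drives entry into differentiation, 817 to 3424 FPKM over the 6 columns. The first value of a pair is the control column and the second the mutant column. A log2 ratio is log2((FPKM + 1)/(FPKM + 1)), mutant over control, where the added 1 FPKM understates differences of low genes.

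As background, chemokines are small secreted proteins that draw leukocytes along a gradient to their G protein-coupled receptors. Cells of injured muscle, myoblasts among them, make such signals, and monocytes and neutrophils follow them into the tissue. Many of these genes are switched on by the transcription factor NF-kB together with C/EBP and AP-1 factors, and interleukin-6, the product of Il6, signals through the shared receptor chain gp130 to the factor STAT3. UTX, encoded by Kdm6a, is a demethylase of histone H3 that removes a repressive methyl mark.

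Promoter windows from 250 bases before to 50 after the gene start were available from RefSeq (GRCm38.p6) for 6 of the 10 genes: Cxcl1, Cxcl12, Csf1, Il6, Saa3 and Ptx3. The other 4, Ccl2, Ccl7, Cxcl5 and Nos2, are named only. The NF-kB consensus, searched on both strands, matched in the windows of Cxcl1, Csf1, Il6 and Ptx3, and in 8.46% of all 32851 windows. These 4 are shown because they hold that match, which is in capitals. The sequences run 5′ to 3′ on the strand of the gene. Cxcl1 lies at chr5:90890995-90891294, plus strand, Il6 at chr5:30012864-30013163, plus strand, Csf1 at chr3:107760420-107760719, minus strand and Ptx3 at chr3:66219637-66219936, plus strand.
Cxcl1: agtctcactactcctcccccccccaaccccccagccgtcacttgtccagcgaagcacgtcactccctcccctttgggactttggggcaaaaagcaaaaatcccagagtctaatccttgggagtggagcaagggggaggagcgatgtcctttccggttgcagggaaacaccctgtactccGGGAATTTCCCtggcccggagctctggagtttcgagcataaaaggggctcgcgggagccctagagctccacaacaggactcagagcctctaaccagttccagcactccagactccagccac
Il6: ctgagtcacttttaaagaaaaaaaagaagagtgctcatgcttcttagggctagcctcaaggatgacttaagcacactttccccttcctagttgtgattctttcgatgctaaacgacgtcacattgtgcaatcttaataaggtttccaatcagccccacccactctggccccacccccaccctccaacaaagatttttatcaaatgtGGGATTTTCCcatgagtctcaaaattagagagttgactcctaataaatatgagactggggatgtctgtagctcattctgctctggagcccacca
Csf1: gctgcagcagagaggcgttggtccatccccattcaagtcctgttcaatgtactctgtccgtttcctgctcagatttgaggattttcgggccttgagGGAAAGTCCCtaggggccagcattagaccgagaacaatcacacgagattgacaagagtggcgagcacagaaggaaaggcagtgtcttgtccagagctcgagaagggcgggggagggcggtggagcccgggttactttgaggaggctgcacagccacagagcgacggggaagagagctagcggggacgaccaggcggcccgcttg
Ptx3: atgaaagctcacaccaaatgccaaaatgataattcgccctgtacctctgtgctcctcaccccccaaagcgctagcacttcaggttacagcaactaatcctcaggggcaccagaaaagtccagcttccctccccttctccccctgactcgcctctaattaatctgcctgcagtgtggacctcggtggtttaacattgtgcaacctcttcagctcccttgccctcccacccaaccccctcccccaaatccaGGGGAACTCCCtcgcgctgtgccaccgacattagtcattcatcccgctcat
The match began at position 180 of the 300 bases in Cxcl1, 207 in Il6, 97 in Csf1 and 250 in Ptx3. In Cxcl1 a match on the opposite strand overlapped it by all but 1 base, and in Ptx3 3 matches overlapped. The C/EBP motif TTGCNNAA, on either strand, occurred in the windows of Il6, Saa3 and Ptx3 and in 10.8% of all windows. The AP-1 motif TGANTCA occurred in Il6 and in 7.81% of all windows. A match describes the letters in this window, and no match in Cxcl12 or Saa3 says nothing of a factor.

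The 10 genes stood at very different levels in the 3 control columns. In female WT cells all 10 were read, from 2.52 FPKM for Il6 to 180.1 FPKM for Cxcl1. In male WT and Ctrl-KI cells 3 of them, Cxcl12, Csf1 and Ptx3, reached 1 FPKM, and the other 7 stayed under 0.5 FPKM. Female WT was at least 10-fold above both other control columns, on the FPKM + 1 scale, for 6 of the 10 genes: Ccl2, Ccl7, Cxcl1, Cxcl5, Saa3 and Nos2. Over all genes with at least 1 FPKM in 1 control column that share was 0.922%, and the median log2 ratio of female WT was 0.12 over male WT and 0.10 over Ctrl-KI. The 3 tables were estimated separately, so these levels stand side by side with no test. The labels give no genotype for male WT or Ctrl-KI. Against male WT, sex, table, preparation and any difference in genotype cannot be told apart. Ctrl-KI cells are female like female WT, and there table, preparation and any difference in genotype cannot be told apart. Markers of fibro-adipogenic cells and fibroblasts, the connective tissue cells of muscle, were also higher there. The summed level of that list of 12 genes was 325 FPKM for female WT, 21.8 for male WT and 13.8 for Ctrl-KI. Other lists stood higher there too. The 10 endothelial genes summed to 21.8, 1.40 and, without 1 merged locus, 2.31 FPKM. The 21 listed NF-kB pathway genes summed to 645, 248 and, without 1 merged locus, 265 FPKM. The 8 muscle markers were lower in female WT, at 6643, 13308 and 11499 FPKM. The part of any cell type in the chemokine levels was not tested.

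**Figure D1:**
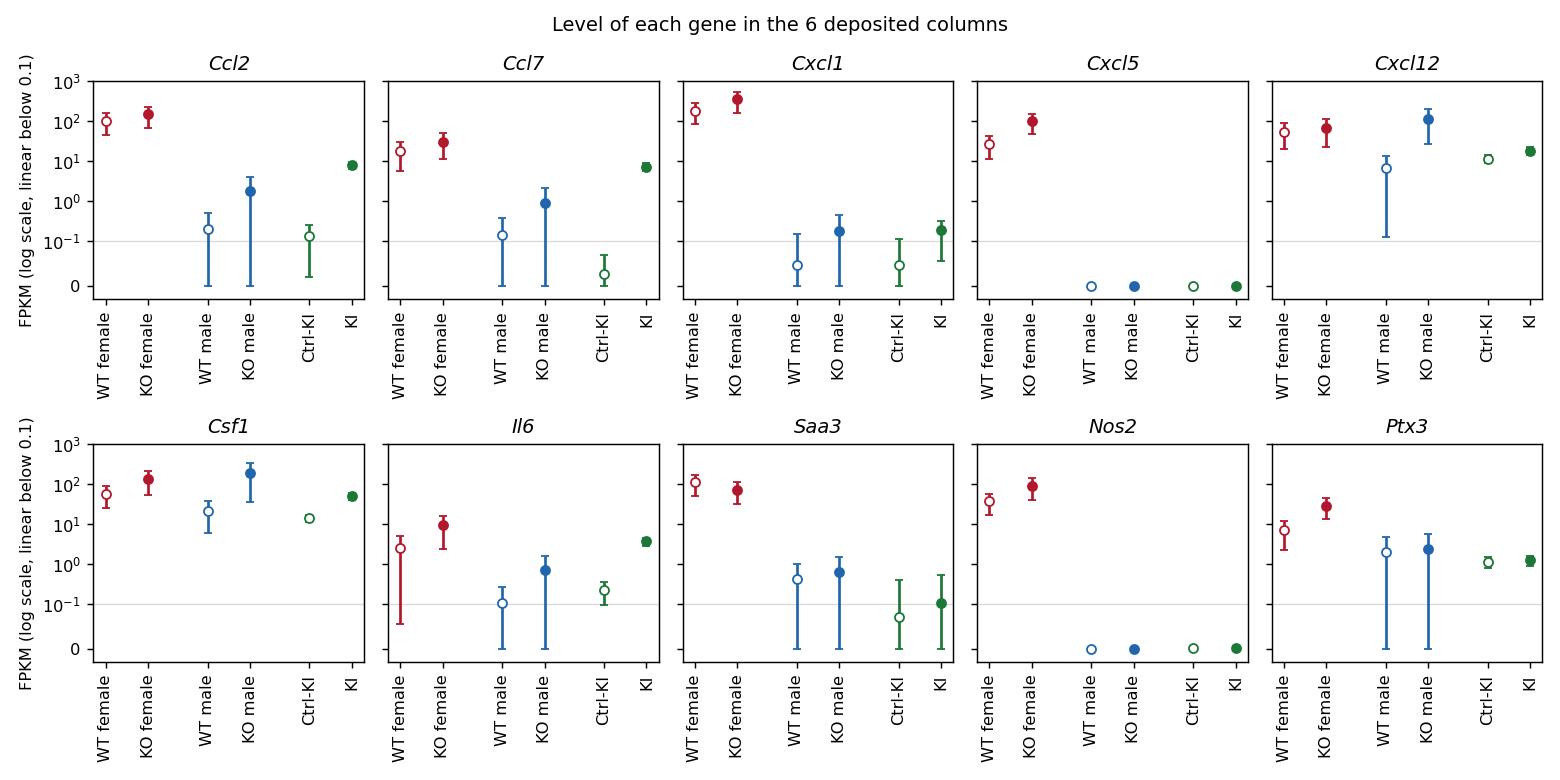
FPKM of each of the 10 genes in the 6 deposited columns (log axis, linear below 0.1 FPKM), control columns as open and mutant columns as filled circles, with bars for the deposited confidence interval. All 10 genes are read in both female KO-table columns, while Cxcl5 is listed at 0 in the other 4, and Ccl2, Ccl7 and Il6 are higher in KI than in Ctrl-KI with intervals apart.

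In female KO cells 9 of the 10 genes lay above WT and 5 were at least 2-fold higher: Cxcl5, Csf1, Il6, Nos2 and Ptx3. None was 2-fold lower. All 10 had at least 1 FPKM in both columns. Among all 12344 genes tested in this table, 4.49% lay 2-fold or more above WT and 4.4% 2-fold or more below. Higher genes made up 50.5% of these calls, 63.2% after centring on the median and 73.7% after rescaling to TPM, a fixed sum per column. The 10 genes were picked with earlier results of these data known, so their share is a description. Their median log2 ratio was 1.06, where the median of all genes was -0.08.

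Cxcl5, a neutrophil-attracting chemokine, was at 27.1 FPKM (interval 11.1 to 43.0) in the female WT library and at 99.5 FPKM (46.4 to 152.6) in the KO library. Ptx3, a long pentraxin that binds microbes and matrix, was 7.08 and 28.6 FPKM, with intervals of 2.28 to 11.9 and 13.1 to 44.0. These were the 2 of the 10 genes whose intervals did not overlap, and 0.664% of all genes had a KO interval wholly above that of WT. Their log2 ratios were 1.84 for Cxcl5 and 1.87 for Ptx3, which put them at ranks 52 and 44 from the top of the table. The nearest bounds were close, the KO lower bound being 1.08 times the WT upper bound for Cxcl5 and 1.10 times for Ptx3.

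The other 3 genes past 2-fold had overlapping intervals. Il6 was 2.52 FPKM in WT against 9.25 in KO, log2 ratio 1.54, with intervals of 0.0562 to 4.99 and 2.43 to 16.1. Nos2, the inducible nitric oxide synthase, was 36.6 and 88.8 FPKM, log2 ratio 1.26. Csf1, the growth factor that macrophages depend on, was 56.9 and 129 FPKM, log2 ratio 1.16. Csf1 and Nos2 thus stood at much higher levels than Il6. Without the added 1 FPKM, KO over WT was 2.26 for Csf1, 2.43 for Nos2 and 3.66 for Il6.

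Cxcl1, the highest of the 10 genes in both female columns and another neutrophil chemokine, was 180.1 and 352 FPKM. Its log2 ratio of 0.96 lay just short of 2-fold, and it passed 2-fold when ratios were centred on the median. The monocyte chemokines Ccl2 and Ccl7 showed smaller differences, with overlapping intervals. Ccl2 was 101 and 148 FPKM (log2 ratio 0.55) and Ccl7 18.3 and 30.5 FPKM (log2 ratio 0.71). Cxcl12, which holds CXCR4-bearing cells in place, was 54.7 and 67.7 FPKM, log2 ratio 0.30. Saa3, an acute-phase serum amyloid made outside the liver, was the 1 gene below WT, at 109.6 and 69.7 FPKM and a log2 ratio of -0.65. Its intervals, 49.9 to 169 in WT and 30.8 to 109 in KO cells, overlapped.

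In these female libraries markers of other cell types differed too. The fibro-adipogenic and fibroblast list summed to 325 FPKM in WT and 766 in KO cells, with 4 of 12 genes at least 2-fold higher and intervals apart for 2. The 16 macrophage and leukocyte markers summed to 11.1 and 18.7 FPKM. The C1q genes and Tyrobp, which define macrophages, were between 0 and 0.110 FPKM in both columns, and Ptprc, the pan-leukocyte CD45 gene, was 0 and 0.00565. The 3 macrophage and leukocyte markers that reached 1 FPKM all lay above WT, with overlapping intervals: Csf1r at 0.477 and 2.58 FPKM, Cd68 at 7.25 and 11.5 and Fcer1g at 0.712 and 1.19. The 10 endothelial genes summed to 21.8 and 38.2 FPKM. The 8 muscle markers summed to 6643 and 2737 FPKM, with 5 at least 2-fold lower. The part of these cells in the female values was not tested. In bulk RNA, more cells of a type and more RNA per cell cannot be told apart.

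**Figure D2:**
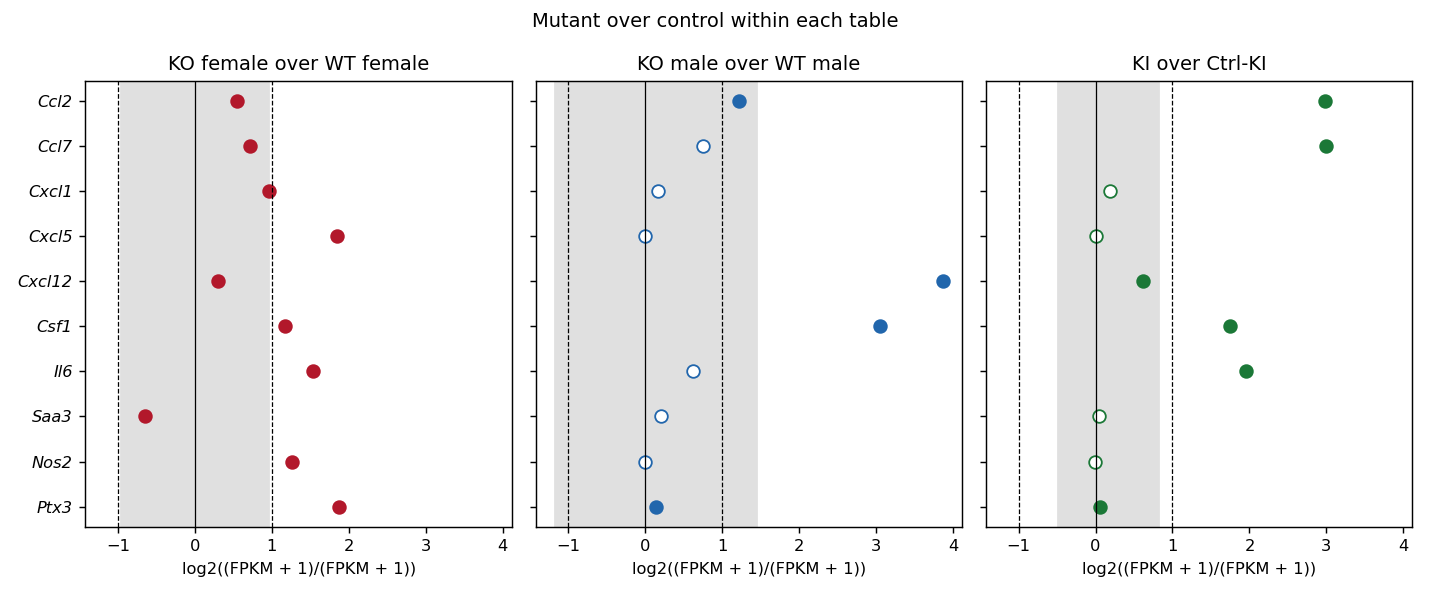
Log2 ratio (mutant over control, 1 FPKM added) of each of the 10 genes within each table; filled circles have at least 1 FPKM in 1 column and open circles do not, dashed lines mark 2-fold, and the grey band holds the 5th to 95th percentile of all genes tested. Ptx3 and Cxcl5 lead in females, Cxcl12 (3.87) and Csf1 (3.05) in males, and Ccl7 (3.0) and Ccl2 (2.98) in KI.

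In male KO cells the difference lay in 2 genes that were well read in both libraries, Cxcl12 and Csf1. Cxcl12 was 6.75 FPKM in the male WT library against 112 in the KO library, with intervals of 0.128 to 13.4 and 26.5 to 197.5. The intervals were apart, the KO lower bound being 1.98 times the WT upper bound, and 0.603% of all 11440 genes tested had a KO interval above that of WT. Its log2 ratio of 3.87 ranked 22 from the top. Csf1 was 21.3 and 184 FPKM, log2 ratio 3.05, rank 43. Its intervals, 5.88 to 36.7 and 35.5 to 332, overlapped by a narrow margin. Ccl2 also passed 2-fold, at 0.208 and 1.80 FPKM and a log2 ratio of 1.21, but it passed the filter of 1 FPKM through the KO column alone, which fixes its direction. The Ccl2 intervals, 0 to 0.516 and 0 to 4.15, overlapped.

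So 3 of the 10 genes were at least 2-fold higher in male KO cells and 0 at least 2-fold lower, where 9.9% of all genes were higher and 6.47% lower. Higher genes were 60.5% of the calls over all genes, 72.2% with TPM over loci with a symbol and 9.12% with TPM over all loci. That last scaling moved the median log2 ratio of all genes from -0.02 to -0.70. Under it Cxcl12 (2.96) and Csf1 (2.22) were still at least 2-fold higher, and Ccl2 was not (0.50). Ccl2 was also under 2-fold with a pseudocount of 5 FPKM (0.39). Of the other genes, Ptx3 was 2.01 and 2.31 FPKM, with both intervals reaching 0. The other 6 did not reach 1 FPKM in either male library. Ccl7 was 0.148 and 0.930 FPKM, Il6 0.106 and 0.693 and Saa3 0.436 and 0.649. Every one of their intervals reached 0. Cxcl1 was 0.0466 and 0.178 FPKM, and Cxcl5 and Nos2 were listed at 0 in both.

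Endothelial markers had the largest ratio of sums among the marker lists of the male table. The list of 10 summed to 1.40 FPKM for WT males against 70.6 for KO males, with intervals apart for 2 of 10. Emcn, an endothelial sialomucin, was 0.0268 and 40.6 FPKM and Cdh5, the junction protein VE-cadherin, 0.0388 and 12.3. Kdr, the main endothelial growth factor receptor, was 0.0149 and 0.122 FPKM, and Tie1 was 0.0404 FPKM in KO cells and listed at 0 in WT. The fibro-adipogenic and fibroblast list summed to 21.8 and 96.7 FPKM, Tcf21 and Lum being listed at 0 in both libraries. The macrophage and leukocyte list summed to 3.32 and 13.8 FPKM, with Lyz2 at 0.681 and 7.94. Cd68 is left out of that sum because its locus is merged with other genes. The 8 muscle markers summed to 13308 and 3732 FPKM, with 5 at least 2-fold lower. The part of such cells in the Cxcl12 and Csf1 values was not tested.

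With the female and the male ratio as the 2 measurements of a KO difference, 4 of the 10 genes had enough expression in both tables to be fitted with limma, with the difference between the sexes as the error. None passed at an adjusted p under 0.05 over all 10418 genes, while 3 of the 4, Ccl2 among them, had an unadjusted p under 0.05, as did 2057 of all 10418 genes. Of all genes 0.0096% passed, which is 1 gene, Gt(ROSA)26Sor, the transcript of the Rosa26 locus that carries the reporter. It was named after its value was seen. Csf1 had a mean log2 ratio of 2.11 ± 0.45 (moderated SE of limma), with 1.16 in females and 3.05 in males (limma, adjusted p = 0.110). For Cxcl12 the mean was 2.08 ± 0.79, from 0.30 and 3.87 (limma, adjusted p = 0.232). Ptx3 ran the other way round, 1.87 in females and 0.14 in males, with a mean of 1.01 ± 0.44 (limma, adjusted p = 0.289). Ccl2, which entered through male KO alone, had a mean of 0.88 ± 0.27 (limma, adjusted p = 0.167). The fit had 1 residual degree of freedom. All 4 were above WT in both sexes, but by unlike amounts, and whether the sexes differ was not tested.

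The KI table held the widest gaps between intervals among the 10 genes, but its intervals were also the narrowest. Over all genes, intervals were apart for 1330 of 11084 in KI, 111 of 12344 in females and 99 of 11440 in males. Ccl2, the main attractant of CCR2-bearing monocytes, was 0.140 FPKM in Ctrl-KI and 8.01 in KI cells, with intervals of 0.0206 to 0.259 and 6.26 to 9.77. Ccl7, its neighbour and close relative, was 0.0259 and 7.21 FPKM, with intervals of 0 to 0.0687 and 5.61 to 8.82. For Ccl2 the KI lower bound was 24.2 times the Ctrl-KI upper bound, and for Ccl7 81.7 times. Il6 was 0.224 and 3.73 FPKM with intervals of 0.0977 to 0.350 and 2.87 to 4.59, the nearest bounds 8.22-fold apart. On the log2 scale the ratios were 2.98 for Ccl2, 3.0 for Ccl7 and 1.95 for Il6. These 3 passed the filter through the KI column alone, which fixes their direction on that filter. The gap between their intervals does not depend on it.

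Csf1 and Cxcl12 were well read in both columns. Csf1 was 14.0 FPKM in Ctrl-KI and 49.2 in KI cells, log2 ratio 1.74, with intervals of 11.3 to 16.7 and 39.6 to 58.8. Cxcl12 was 11.7 and 18.3 FPKM, log2 ratio 0.61, and its intervals, 9.22 to 14.1 and 14.7 to 22.0, were apart by a small margin. That direction turns with TPM over all loci, where the Cxcl12 value was -0.16 against a median of -0.77 for all genes. Csf1 was the 1 of the 10 genes at least 2-fold higher in both KO tables and in KI, with values of 1 FPKM or more in every column. With TPM over all loci its KI ratio was 0.93, under 2-fold. Its levels in the 3 mutant columns were 129, 184 and 49.2 FPKM, against 56.9, 21.3 and 14.0 in their controls.

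Of the 10 genes, 6 reached 1 FPKM here. At least 2-fold higher in KI cells were 4 (Ccl2, Ccl7, Csf1 and Il6) and 2-fold lower 0, where 3.86% of all 11084 genes were higher and 0.893% lower. Intervals were apart upward for 5 of the 6 that reached 1 FPKM, against 8.27% of all 11084 genes. Ccl2, Ccl7 and Il6 are in both counts and passed the filter through the KI column alone, which fixes their direction. Higher genes were 81.2% of the calls over all genes, and 10.4% with TPM over all loci. The rest showed little. Ptx3 was 1.14 and 1.23 FPKM with overlapping intervals. Cxcl1 was 0.0481 and 0.192 FPKM, Saa3 0.0704 and 0.108, Nos2 0.00158 and 0.00109, and Cxcl5 was listed at 0 in both columns. The neutrophil chemokines and the acute-phase gene thus stayed near 0 in the columns where the monocyte chemokines differed most.

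The marker sums for macrophages, connective tissue and endothelium were each higher in KI than in Ctrl-KI cells. The 16 macrophage and leukocyte markers summed, without 2 merged loci, to 1.53 FPKM in Ctrl-KI and 47.5 in KI cells. Intervals were apart for 11 of the 16, 10 upward and 1, Itgam, downward. Lyz2, lysozyme, was 0.282 and 31.0 FPKM, and the complement gene C1qb 0.0180 and 3.91. C1qa, C1qc and Tyrobp were listed at 0 in Ctrl-KI and at 2.35, 3.08 and 2.59 FPKM in KI cells. Ptprc was 0.00345 and 0.224 FPKM. The fibro-adipogenic and fibroblast list summed to 13.8 and 469 FPKM with intervals apart for 11 of 12, and Tcf21 was listed at 0 in both columns. In it Col1a1, type I collagen, was 0.515 and 158 FPKM and the proteoglycan gene Dcn 0.171 and 28.3. The 10 endothelial genes summed, without 1 merged locus, to 2.31 and 9.39 FPKM, with intervals apart for 8 of 10. Of these genes 2 reached 1 FPKM, Eng at 2.12 and 7.64 and the merged locus of Esam at 4.78 and 4.98. The counts of intervals apart include genes under 1 FPKM. Among genes that reached it, intervals were apart upward for 6 of 8 macrophage and leukocyte markers. The counts were 9 of 9 for the fibro-adipogenic and fibroblast list and 1 of 2 for endothelial genes, against 8.27% of all genes. Of those 8 and 9 genes, 6 and 7 passed the filter through the KI column alone, which fixes their direction. The part of these cells in the Ccl2, Ccl7, Il6 and Csf1 values was not tested. Neutrophil and lymphocyte lists summed to under 0.3 FPKM in both columns, and the muscle list had 0 of 8 genes past 2-fold in either direction.

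**Figure D3:**
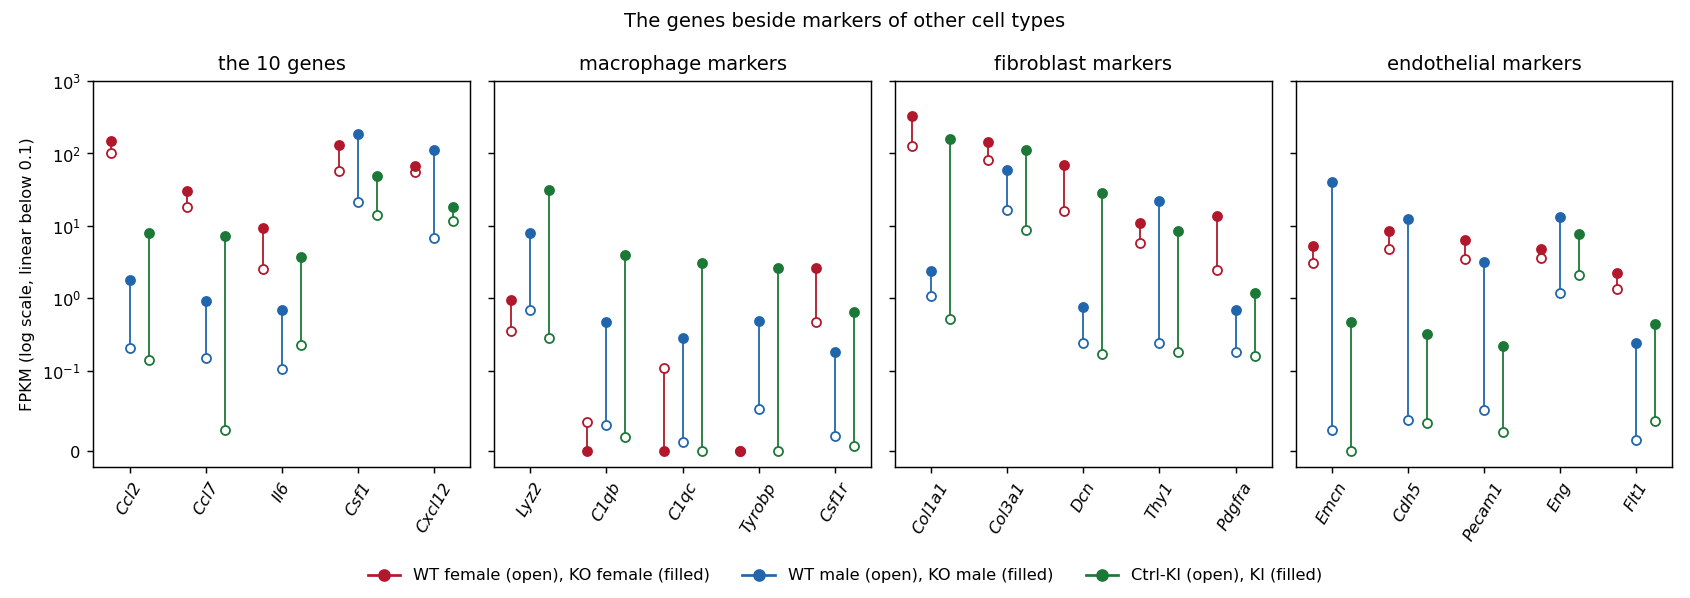
FPKM (log axis, linear below 0.1) of 5 of the genes and of 5 markers each of macrophages, fibroblasts and endothelial cells, with the control column open and the mutant column filled and joined by a line for each table. In the KI table Lyz2, C1qb, Col1a1 and Dcn are higher, as are Ccl2, Ccl7 and Il6. In the male table Emcn, Cdh5, Thy1 and Lyz2 are higher, as are Cxcl12 and Csf1. The endothelial markers Kdr and Tie1, low in both male columns, are not drawn. The part of any cell type in these genes was not tested.

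Gene position set 2 pairs apart, by the mm9 coordinates of the tables. Ccl2 (chr11:81849079-81850954) and Ccl7 (chr11:81859214-81861025) lie 8259 bases from each other. Of 6 listed chemokine genes within 500 kb of them, Ccl1, Ccl8, Ccl11 and Ccl12 did not reach 1 FPKM in any column. Ccl11, eotaxin, was 0.0115 and 0.330 FPKM in Ctrl-KI and KI cells, with intervals of 0 to 0.0416 and 0.172 to 0.488, which were apart. So in KI cells the pair was read at several FPKM while its 4 neighbours stayed at or under 0.330. Cxcl5 (chr5:91188325-91190651) and Cxcl1 (chr5:91320271-91322141) lie 129619 bases apart, in a group of 7 listed genes. Their neighbours Cxcl2, at 8.76 and 28.7 FPKM, and Cxcl3, at 2.40 and 3.30, were also read in both female libraries. In the male and KI tables all 7 stayed under 0.2 FPKM.

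The other genes have mm9 positions chr6:117118553-117131386 for Cxcl12, chr3:107543966-107563387 for Csf1, chr5:30339701-30346508 for Il6 and chr11:78734361-78773626 for Nos2. Their widths are equal to those in RefSeq for Cxcl12 (12834 bases) and Csf1 (19422), and near them for the other two. Ptx3 is listed on a locus of 241994 bases in the female and KI tables, although the RefSeq gene spans 5920, because it shares the locus with Veph1. Veph1 has a row of its own, at 0.253 FPKM or less in every column. Saa3 (chr7:53967368-53971046 in the female table) shares a locus of 34449 bases with Saal1 in the KI table only. Saal1 was 2.92 to 3.66 FPKM over the 6 columns. Its relatives Saa1 and Saa2 were at 0.140 FPKM or less in every column.

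The other chemokines were mostly unread. Of 32 listed, 10 reached 1 FPKM in the female table and 4 in each of the other tables. In female KO cells 2 were at least 2-fold higher and 1 lower, with a median log2 ratio of 0.65. Cxcl2 led at 8.76 and 28.7 FPKM, and Ccl27a, a skin-type chemokine, was lowest at 25.7 and 8.02. Ccl27a shares its locus with Il11ra1, and its intervals overlapped in every table, reaching 0 in both KO tables. Its female intervals were 0 to 63.3 and 0 to 21.9. Male KO cells had 2 at least 2-fold higher and 0 lower. Cx3cl1, the membrane-bound fractalkine, was 1.57 and 18.2 FPKM there with intervals apart, and Ccl27a was again lowest at 7.44 and 3.44. In KI cells Cx3cl1 was the 1 past 2-fold, at 2.15 and 5.85 FPKM, and its intervals were apart, while Ccl27a was lowest at 4.77 and 4.02. Among 30 other cytokines Kitl, the ligand of the receptor Kit, was the highest in all 3 tables. It was 4.05 against 15.7 FPKM in females, 0.499 against 6.60 in males and 0.273 against 1.78 in KI, with intervals apart in each. Ctf1, cardiotrophin-1, was the lowest in all 3, at 11.5 and 2.83, 18.0 and 10.3, and 13.3 and 7.52 FPKM. Past 2-fold were 2 of 13 genes higher and 1 lower in females, 5 of 13 and 0 in males, and 1 of 10 and 0 in KI. Of the 5 in males, Il7, Il12a, Il33 and Kitl reached 1 FPKM through the KO column alone, and Kitl in KI through the KI column alone, so the filter fixes their direction. The same holds among the other pathway lists for Cxcl9, Hpx, Arg2 and Csf1r in females and for Cxcl13 and Nfkbiz in males. Marker genes passed the filter in this way too, in KI as given above. In males they were 3 of 4 endothelial, 2 of 6 fibro-adipogenic and fibroblast and 1 of 3 macrophage and leukocyte markers that reached 1 FPKM. In females they were 2 of 3 macrophage and leukocyte markers. For all genes the shares 2-fold higher were those given above, 4.49%, 9.9% and 3.86%, and nothing particular to a list is read from its counts.

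Of the 9 receptor genes for these ligands, 1 passed 2-fold in 1 table, counting genes that reached 1 FPKM and with 1 FPKM added. Cxcr4, the receptor of Cxcl12, was 60.1 against 74.5 FPKM in the female libraries and 7.10 against 10.6 in the male ones. In the KI table it was 7.57 against 11.7, with intervals apart. Cxcr7, the scavenger receptor of Cxcl12, was 24.3 and 27.1, 12.1 and 13.5, and 8.21 and 7.54 FPKM. Il6st, which encodes gp130, was 86.8 and 83.3, 56.2 and 31.8, and 62.6 and 54.6. Its partner Il6ra stayed between 0.437 and 1.86 FPKM. That receptor was Csf1r, the Csf1 receptor and itself a macrophage marker, at 0.477 and 2.58 FPKM in females. Male libraries had 0.0189 against 0.182 FPKM and KI columns 0.00621 against 0.650. Ccr2, the receptor of Ccl2 and Ccl7, was at 0.0124 FPKM or less in every column, and Ccr1 and Ccr3 stayed under 1 FPKM. Under that level Ccr1 was 0.0365 and 0.695 FPKM in females and 0.0114 and 0.0981 in males, with overlapping intervals. In the KI table Ccr1 was 0.00952 and 0.192 FPKM, with intervals apart. Cxcr2, the receptor of Cxcl1 and Cxcl5, also stayed under 1 FPKM. Ccl2, Ccl7, Cxcl1 and Cxcl5 were thus read in female cells whose receptors for them stayed under 1 FPKM, while Cxcl12 was read together with its receptors.

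Among 28 other cytokine and chemokine receptors, 6 were at least 2-fold higher and 1 lower in female KO cells (median 0.72). Il1rl1, the interleukin-33 receptor, was 8.09 and 37.8 FPKM with intervals apart, and Il11ra1 was lowest at 39.3 and 17.7. Il11ra1 lies on the locus it shares with Ccl27a, and its intervals overlapped. In males 3 were higher and 2 lower, and in the KI table none passed 2-fold. Il4ra led in males at 5.60 and 17.8 FPKM, and Il11ra1 was again lowest at 9.49 and 4.02. Osmr was the highest of the KI list at 1.36 and 2.64 FPKM and Lifr the lowest at 1.32 and 1.13.

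Of 29 other acute-phase and innate genes, 16 reached 1 FPKM in females, 5 in males and 4 in the KI table. The protease inhibitor A2m was highest in females at 3.83 and 25.5 FPKM, intervals apart, and the binding protein Lbp lowest at 3.72 and 2.05. Complement C3 was 47.0 and 64.6 FPKM in the female libraries and under 0.03 in the other 4 columns, a split like that of Saa3. Hepatic fibrinogen genes Fga, Fgb and Fgg were listed at 0 in every column. The lowest were Tlr4 in males at 20.3 and 10.8 FPKM and ceruloplasmin, Cp, in the KI table at 1.70 and 1.28. For the arginine enzymes beside Nos2, the female list had 2 genes past 2-fold, Arg2 (0.0652 and 1.88 FPKM) and the arginine transporter Slc7a2 (18.2 and 50.4), and Asl was lowest at 22.4 and 20.3. Ass1, which regenerates arginine, was the 1 past 2-fold in males at 19.3 and 53.5 FPKM and in the KI table at 9.87 and 22.1. Slc7a2 was lowest in males at 0.757 and 1.04 FPKM, and Asl in the KI table at 9.25 and 8.22.

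The NF-kB pathway list had its highest median in the female table. Of its 21 genes 18 lay above WT in female KO cells and 4 were at least 2-fold higher, with a median log2 ratio of 0.54. Birc3, an inhibitor of apoptosis and NF-kB target, was 12.4 and 52.1 FPKM with intervals apart, and the adhesion gene Icam1 10.1 and 28.2. Nfkbia, the inhibitor that NF-kB itself induces, was 150.4 and 228 FPKM. The lowest was the kinase gene Map3k14, at 17.6 and 11.1. In male KO cells 7 of 18 lay above WT, the median was -0.31, and 1 gene, Nfkbiz, was past 2-fold at 0.858 and 2.77 FPKM. Traf2 was lowest there, at 15.8 and 8.61. For KI cells, 12 of 18 lay above Ctrl-KI, 0 were past 2-fold and the median was 0.08, from Bcl3 at 1.71 and 3.47 FPKM to Sod2 at 30.8 and 23.1. The medians of all genes were -0.08, -0.02 and -0.04, and the share of all genes above control was not computed. Other lists also lay mostly above WT in females, with 17 of 19 other receptors, 13 of 16 acute-phase and innate genes and 9 of 10 other chemokines. Among other cytokines 7 lay above WT and 6 below. Whether the lists differ between tables was not tested.

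For JAK-STAT3 and C/EBP factors, 3 of 13 genes were at least 2-fold higher in female KO cells (median 0.39), among them Jak2 (23.5 and 52.0 FPKM), Cebpb (66.5 and 142.5) and the highest, Fosl2 (77.0 and 169.6). Stat3 was 61.6 and 124 FPKM, just short of 2-fold, and Tyk2 was lowest at 27.7 and 14.0. In males 2 were higher and 1 lower (median 0.51). Cebpa was 5.69 and 19.9 FPKM, and Pim1, a kinase gene that STAT3 induces, 23.9 and 6.06. Socs3, the feedback inhibitor of gp130 signals, was 14.0 against 18.6 FPKM in females, 0.827 against 1.75 in males and 2.14 against 3.14 in KI. No gene of this list passed 2-fold in the KI table (median 0.27), where Cebpd was highest at 2.98 and 5.44 FPKM and Cebpa lowest at 8.65 and 7.72.

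**Figure D4:**
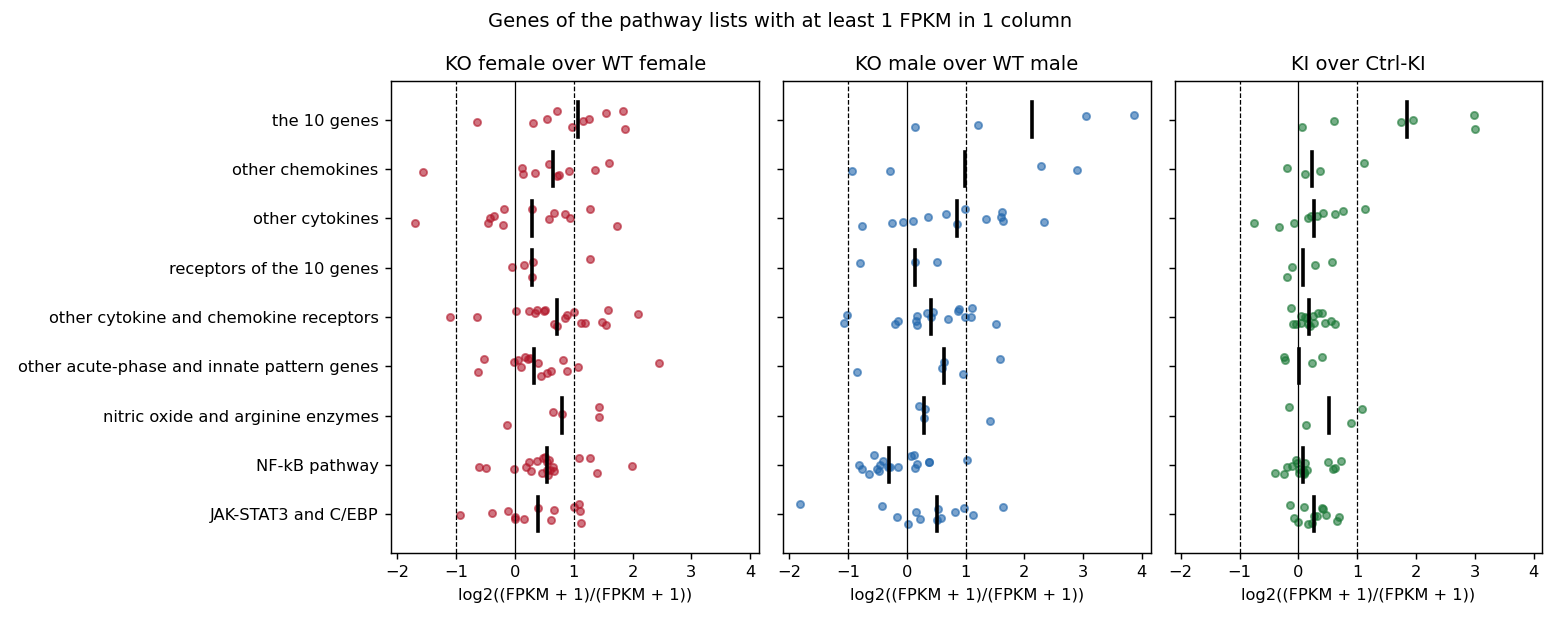
Log2 ratio (mutant over control, 1 FPKM added) of every gene with at least 1 FPKM in 1 column in the 10 genes and in 8 pathway lists, by table, with a black bar at each median and dashed lines at 2-fold. In females 18 of 21 NF-kB pathway genes lie above 0, in males 7 of 18, and of the 18 in KI cells 12 do. Most genes of several other lists also lie above 0 in females.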

How the data were processed

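The authors deposited 3 gene tables, each with 2 columns of FPKM, their confidence bounds (low and high) and a status, in the layout of Cufflinks and Cuffdiff per the file headers. The tools, per the submitters' processing notes, included edgeR, Cuffdiff, bedtools 2.16.2, HTSeq 0.6.1, Cufflinks 2.2.1, TopHat2 2.0.12 and Bowtie2 2.2.4, on mm9, with no role or order. The annotation, the confidence level, strand use and scaling between libraries are not given in the sources used here. Groups come from sample titles and columns from their names.

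From these values, loci with a symbol and status OK in both columns were kept (23109 female, 22862 male and 22762 KI), and genes with at least 1 FPKM in 1 column were tested. Log2 ratios used a pseudocount of 1 FPKM, within a table only. Merged symbols were kept and marked. FPKM are not counts, so no count test was run. The planned test across KI replicates could not be run on pooled columns. The KO effect over both sexes was fitted with limma 3.58.1 (R 4.3.3) on the female and male ratios against 0, with a mean-variance trend and Benjamini-Hochberg adjustment at 0.05 over all genes with a unique symbol. The same fit was also run on simulated data. Tables were handled with python 3.11.15 and pandas 2.3.3. Printed starts are 1 higher than deposited, which makes the widths of Ccl2, Cxcl12 and Csf1 equal to those in RefSeq. The build of the reference differs (GRCm38), so it gave names, widths and promoter windows only.

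The 10 genes, the 8 pathway lists and the 6 marker lists were chosen with earlier results of these data known. Named are the 10 genes, the receptors, and the highest and lowest gene of each pathway list in each table. Other list genes were named after their values were seen. 1 gene that this rule names is not reported here. The alternatives were other pseudocounts (0.1 or 5 FPKM), other filters (none, or 5 FPKM), centring on the median, TPM over all loci or over loci with a symbol, intervals apart, and in limma a fit without the trend or with the KI ratio added. A filter on the mean of both columns was added after seeing the data.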

Additional observations from a re-analysis of the deposited data

How the results depend on the processing

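The number of the 10 genes at least 2-fold higher or lower was within 1.5 times its main value (5 in females, 3 in males, 4 in KI) in all but 3 cases. Non-overlapping intervals gave 2 in females and 1 in males, and TPM over loci with a symbol gave 5 in males, where Ccl7 (1.29) and Il6 (1.11) were then past 2-fold. Of 150 single ratios of the 10 genes under other settings, 0 that were past 2-fold changed sign, and 6 smaller ones did. With TPM over all loci these were Cxcl12 in KI (-0.16), Saa3 and Ptx3 in males (-0.04 and -0.28) and in KI (-0.01 and -0.33), where the median of all genes moved to -0.70 in males and -0.77 in KI. With median-centred ratios it was Nos2 in KI, near 0 in both columns. With a pseudocount of 5 FPKM, Il6 in females (0.92), Ccl2 in males (0.39) and Il6 in KI (0.74) were under 2-fold, and with TPM over all loci Ccl2 in males (0.50) and Csf1 in KI (0.93). The count over all genes in females, 1097, was 1747 with a pseudocount of 0.1, 442 with a pseudocount of 5 and 111 by intervals apart. In males, 1872 became 918 with a pseudocount of 5 and 99 by intervals. In KI, 527 became 224 with a pseudocount of 5, 344 with a filter of 5 FPKM, 1330 by intervals and 1881 with TPM over all loci. The limma fit called 1 gene, 120 with a filter of 5 FPKM (38 higher and 82 lower) and 0 with a pseudocount of 5, no trend, median-centred ratios or the KI ratio added; the cause was not tested. Under each of these settings it called 0 of the 10 genes. Csf1 had its smallest adjusted p with the filter of 5 FPKM (limma, adjusted p = 0.0697) and its largest with the KI ratio added (0.180). No paired analysis was possible because the KI table gives 1 pooled column for both replicates of a group. For the same reason no replicate could be left out, and leaving out a sex leaves no error for the limma fit.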
